A study of Mus musculus with 12 samples.

Results

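Transcripts of the Wnt pathway were measured in mouse embryonic stem (ES) cells that lack Dicer1, the nuclease that cuts precursor hairpins into mature microRNAs. The members were the Wnt ligands, the Frizzled and Lrp receptors, the Dkk, Sfrp, Frzb and Wif1 antagonists, the intracellular genes Axin1, Axin2, Lef1, Tcf7, Tcf7l2 and Ctnnb1, and the target Ccn4, whose name on the array was Wisp1. They were chosen by these gene names and by a signal well above background on 2 or more arrays, with the brightest probe standing for each gene. Of 48 such genes on the chip, 44 passed, out of 19324 genes tested in the whole series: 17 ligands, 12 receptors, 8 antagonists, 6 intracellular genes and 1 target. Wnt8b passed with 2 arrays, Dkk2 fell just short with 1 array, and Dkk4, Wnt10b and Wnt2b were on 0 arrays.

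The groups were Dicer-null cells of lines 27G5 and 27H10, the same Dicer-null lines labelled as overexpressing Dnmt1, the same lines labelled as overexpressing Dnmt3a and Dnmt3b, and wild-type ES cells. The growth conditions were the same for all of them: gelatin-coated plates and leukemia inhibitory factor, with no further treatment. The cells labelled Dnmt1 and Dnmt3a,3b therefore also lacked Dicer1, and were compared with Dicer-null cells and not with wild type. Each of 12 2-colour arrays held 2 RNAs, every pairing was repeated with the dyes exchanged, and the 6 resulting ratios covered 3 comparisons in 2 lines. RNA of one name was treated as 1 RNA on all its arrays, which the labels do not state, so the spread of wild type is in no p-value. The labels name no separate cultures within a line, so p-values measure only the spread between these samples, and bulk RNA cannot tell fewer cells of a type from less RNA per cell.

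Wnt proteins are secreted lipid-modified ligands that bind a Frizzled receptor together with Lrp5 or Lrp6. In the canonical branch the bound receptors disable a complex built on Axin that otherwise marks β-catenin, the product of Ctnnb1, for destruction, and β-catenin then acts with the DNA-binding factors Lef1 and Tcf7 on target genes such as Axin2. Secreted Sfrp proteins, Frzb and Wif1 bind Wnt ligands, and Dkk1 binds Lrp5 and Lrp6. In mouse ES cells Wnt signalling is known for helping to maintain self-renewal and, at other times, for driving entry into mesoderm.

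The targeted genes were checked first. On 1 of the 2 Dicer1 probes the Dicer-null over wild type log2 ratio was -4.07 ± 0.08 (SD, n = 2 lines), and the 4 arrays lay between -4.33 and -3.93. On the brighter Dicer1 probe the ratio was -0.53 ± 0.04. The arrays did not show the labelled overexpression: the Dnmt1 log2 ratio was 0.27 ± 0.23 in cells labelled Dnmt1 (limma adjusted p = 0.112), and in cells labelled Dnmt3a,3b the ratio of Dnmt3b was -1.04 ± 0.59 (adjusted p = 0.0344) and that of Dnmt3a -1.03 ± 0.92 (adjusted p = 0.0834). Other Dnmt3a probes, which were not the tested one, gave 0.20 ± 0.01 and -0.72 ± 0.85 in cells labelled Dnmt3a,3b. On the tested probes these changes were not particular to a label. In cells labelled Dnmt1, Dnmt3b was at -1.06 ± 0.40 (adjusted p = 0.0308) and Dnmt3a at -1.34 ± 0.58 (adjusted p = 0.0408). Dnmt1 was at 0.27 ± 0.07 in cells labelled Dnmt3a,3b. Dnmt3b was also lower in Dicer-null cells than in wild type, at -1.23 ± 0.30 (adjusted p = 0.0107). Whether any of these probes lie within an introduced sequence is not stated in the sources used here, so they may check nothing, and the cells are called by their labels throughout. Between 62.1% and 69.1% of probes per channel were well above background, and the number of arrays, not a count of reads, limits the precision.

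Some member probes covered more of the genome than their own length by the positions in the array design, as probes across an exon junction do. Those of a ligand, a receptor and a transcription factor are shown, since their values are given further on, all on build mm7 (NCBI35). Their positions were not compared with an exon annotation, so a junction is not established. The Wnt4 probe lay at chr4:136674216-136674784 on the plus strand, the second Fzd3 probe at chr14:60072091-60094840 on the minus strand and the second Lef1 probe at chr3:131041424-131059585 on the plus strand.
Wnt4: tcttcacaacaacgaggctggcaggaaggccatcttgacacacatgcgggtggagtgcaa
Fzd3: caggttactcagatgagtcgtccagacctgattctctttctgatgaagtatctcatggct
Lef1: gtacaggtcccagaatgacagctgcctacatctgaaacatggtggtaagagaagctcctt

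MicroRNAs of the miR-290 cluster and the miR-302 family are the class that mouse ES cells are known to hold in abundance and to lose without Dicer1. Their mature sequences from RefSeq are shown because members can carry matches to them, with the seed (bases 2 to 8) in capitals. The first 4 share the seed AAGUGCU, and miR-290a-3p differs from them in the last seed base.
miR-291a-3p: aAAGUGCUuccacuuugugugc
miR-294-3p: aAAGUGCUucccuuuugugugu
miR-295-3p: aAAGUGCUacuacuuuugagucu
miR-302b-3p: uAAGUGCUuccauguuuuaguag
miR-290a-3p: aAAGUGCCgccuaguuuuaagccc

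The 60 member probes, each 60 bases long, were searched on the transcript strand for 2 overlapping 7-letter words that pair with this seed, AGCACTT (bases 2 to 8) and GCACTTA (bases 2 to 7 followed by A). One or both words stood in 3 member probes, and in 0.804% of the 41174 probes on the chip. The stretches are shown, 30 bases each, with the word in capitals. They lie on mm7 at chr19:30246102-30246131 on the minus strand (Dkk1), chr5:127839169-127839198 on the plus strand (Fzd10) and chr19:55823489-55823518 on the plus strand (the second Tcf7l2 probe). A match is a description of the letters and not evidence of a site in use.
Dkk1: tcctcagtgtgGCACTTAcctgtaaatgca
Fzd10: tccatgagtggtcttgaAGCACTTgggaag
Tcf7l2: aatccacctccGCACTTAccagctgacgta

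Those 3 genes did not move alike in cells without Dicer1. The Dicer-null over wild type log2 ratio was -1.31 ± 0.15 for Dkk1 (adjusted p = 0.0146), 1.15 ± 0.12 for Fzd10 (adjusted p = 0.00547) and 0.02 ± 0.11 for that Tcf7l2 probe, which was not the one tested (SD, n = 2 lines).

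In Dicer-null cells most of the pathway's ligands and receptors stood lower than in wild type, while Wnt3a, Fzd10 and Sfrp1 stood higher. Of the 44 members, 7 rose and 22 fell in Dicer-null cells relative to wild type at a limma adjusted p under 0.05, and 15 did not pass. Over all genes tested, 40.7% passed in either direction, 20.4% higher and 20.2% lower, against 65.9% of members. The median member log2 ratio was -0.35, beside 0.01 over all genes, and the median size was 0.65 beside 0.28. In all 29 called members the 4 arrays shared 1 sign, and 16 of them differed at least 2-fold. In the plot of Dicer-null over wild type the triangles and circles of the called members lie on 1 side of 0.

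**Figure D1:**
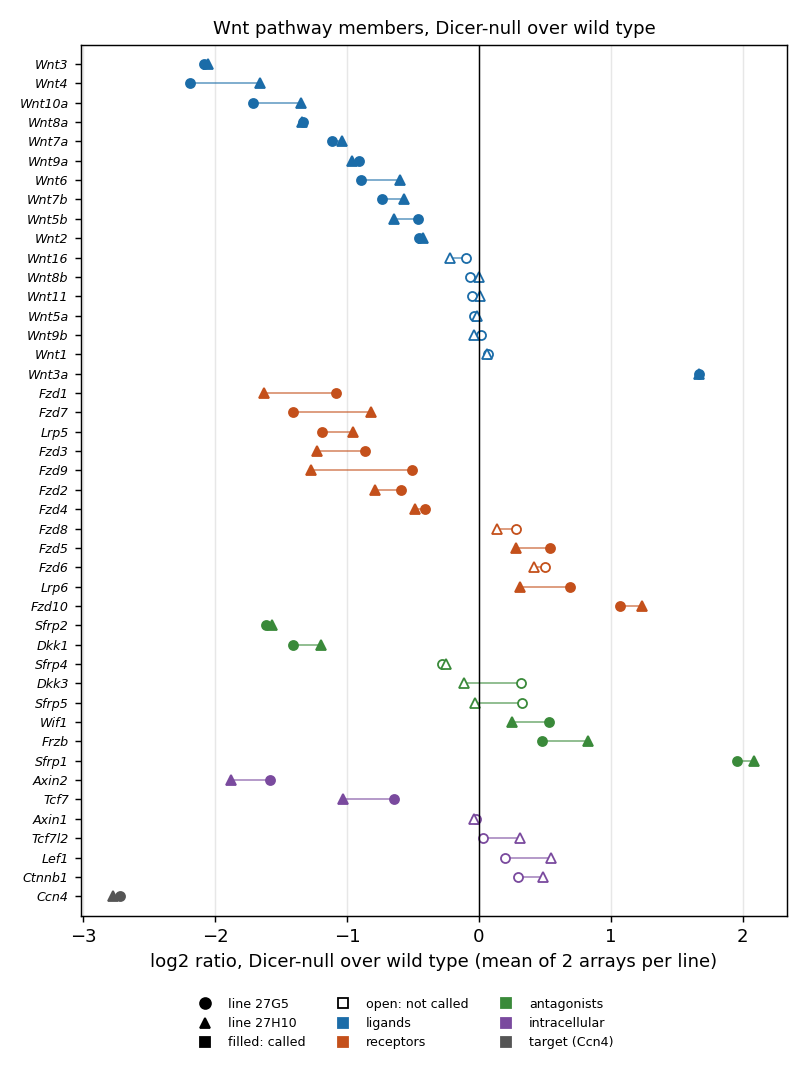
Log2 ratio of Dicer-null over wild type (horizontal axis) for each of the 44 members (rows, by role), as the mean of 2 dye-swapped arrays in line 27G5 (circles) and line 27H10 (triangles). Filled symbols are members called at adjusted p under 0.05, 7 higher and 22 lower, from Ccn4 at -2.75 to Sfrp1 at 2.03.

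Among the ligands, 10 of 17 fell, 1 rose and 6 did not pass. Wnt3, a canonical ligand needed for the primitive streak of the mouse embryo, had normalised intensities of 116, 138, 130 and 128 in Dicer-null cells, against 491, 579, 483 and 587 in wild type on the same 4 arrays. No Dicer-null value came near a wild-type one. The log2 ratio was -2.06 ± 0.02 (SD, n = 2 lines, adjusted p = 0.000252), which is 4.18-fold lower, on the probe at chr11:103925136-103925195 (mm7, plus strand). A second Wnt3 probe gave -3.03 ± 0.11.

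Wnt3a, the close relative of Wnt3 used as the standard canonical ligand in culture, moved the other way. Its intensities were 495, 498, 527 and 516 in Dicer-null cells, against 165, 147, 178 and 150 in wild type, with no overlap. The log2 ratio was 1.67 ± 0.00 (adjusted p = 0.000236), 3.19-fold higher, on the probe at chr11:59329702-59329761 (mm7, minus strand). The 2 genes of this pair therefore changed in opposite directions in both lines.

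Wnt4, a ligand known from kidney and gonad development, had intensities of 245, 237, 375 and 312 in Dicer-null cells, against 990, 1220, 992 and 1180 in wild type. The groups did not overlap, although line 27H10 stood above line 27G5. The Wnt4 log2 ratio was -1.92 ± 0.38 (adjusted p = 0.00183), on the probe shown above. Wnt10a, a ligand known from tooth and skin, fell by 1.53 ± 0.26 on the log2 scale (adjusted p = 0.00293), with arrays at -1.98, -1.44, -1.52 and -1.17. Wnt8a, a ligand of the early embryo's posterior, had array ratios of -1.41, -1.26, -1.29 and -1.39 and a mean of -1.34 ± 0.01 (adjusted p = 0.000625).

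The remaining ligands that fell were Wnt7a at -1.07, Wnt9a at -0.93, Wnt6 at -0.75, Wnt7b at -0.65, Wnt5b at -0.55 and Wnt2 at -0.44 on the log2 ratio scale. Wnt7a was well above background on 1 array in Dicer-null cells and 4 in wild type. Wnt2 was not well above background on any array in Dicer-null cells and was so on 3 in wild type, so it was at least 1.18-fold lower. The ligands that did not pass were Wnt1, Wnt11, Wnt16, Wnt5a, Wnt8b and Wnt9b, with log2 ratios between -0.16 and 0.07. Wnt5a, the best-known ligand of the β-catenin-independent branch, had a ratio of -0.02 ± 0.02 and passed background on 2 Dicer-null and 3 wild-type arrays.

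The receptors were divided. Of 12, 7 fell, 3 rose and 2 did not pass. Fzd1, a receptor able to act in the canonical branch, had array log2 ratios of -1.20, -0.95, -1.74 and -1.52, all below 0 and lower in line 27H10, with a mean of -1.35 ± 0.39 (adjusted p = 0.00136). Fzd10 had intensities of 4120, 4550, 4680 and 5330 in Dicer-null cells, against 2140, 1980, 2240 and 2010 in wild type, without overlap. A second Fzd10 probe gave a log2 ratio of 0.79 ± 0.01.

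The other Frizzled receptors that fell were Fzd7 at -1.11, Fzd3 at -1.05, Fzd9 at -0.89, Fzd2 at -0.69 and Fzd4 at -0.45 on the log2 ratio scale. Fzd7 is known as the most abundant Frizzled of human ES cells, and its second probe gave -0.43 ± 0.03. The second Fzd3 probe, whose sequence is given above, was well above background on 0 Dicer-null and 4 wild-type arrays and was at least 1.49-fold lower. The 2 co-receptors moved in opposite directions: Lrp5 at -1.07 ± 0.17 (adjusted p = 0.00162) and Lrp6 at 0.50 ± 0.27 (adjusted p = 0.0478). Fzd5 rose by 0.41, and Fzd6 at 0.46 and Fzd8 at 0.21 did not pass.

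Of the 8 antagonists, 3 rose and 2 fell. Sfrp1 binds Wnt ligands outside the cell, and its intensities were 7600, 7240, 8780 and 8610 in Dicer-null cells, against 1750, 2060, 1840 and 2250 in wild type. The groups were far apart in both lines. The Sfrp1 log2 ratio was 2.03 ± 0.09 (adjusted p = 0.0021), 4.08-fold higher, on the probe at chr8:22232957-22233016 (mm7, plus strand), and a second probe gave 1.46 ± 0.09.

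Sfrp2, of the same family, went the other way, with array log2 ratios of -1.57, -1.65, -1.55 and -1.58 and a mean of -1.59 ± 0.03 (adjusted p = 0.000485). Dkk1, itself a published target of canonical signalling, had log2 ratios of -1.41 in line 27G5 and -1.20 in line 27H10, with all 4 arrays below 0. A second Dkk1 probe was well above background on 0 Dicer-null arrays and was at least 1.50-fold lower. Frzb rose by 0.65 and Wif1 by 0.39 on the log2 scale, while Dkk3 at 0.11, Sfrp4 at -0.26 and Sfrp5 at 0.15 did not pass. Frzb and Wif1 were well above background on 4 arrays in Dicer-null cells, and in wild type on 1 for Frzb and 2 for Wif1.

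The pathway readouts Axin2 and Ccn4 both fell. Axin2, the feedback component whose transcription is the usual readout of canonical signalling, had intensities of 228, 268, 197 and 210 in Dicer-null cells, against 756, 723, 741 and 750 in wild type. The 4 Dicer-null values were all well below the 4 wild-type values. The log2 ratio was -1.73 ± 0.21 (adjusted p = 0.00326), 3.32-fold lower, on the probe at chr11:109059707-109059766 (mm7, plus strand).

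Ccn4, a secreted matricellular protein first described as induced by Wnt1, had intensities of 166, 177, 152 and 167 in Dicer-null cells, against 1170, 1080, 1110 and 1070 in wild type. By the brightest probe of each gene these groups were the farthest apart on the log2 scale, while the second Wnt3 probe stood farther apart still. The log2 ratio was -2.75 ± 0.04 (adjusted p = 0.000163), 6.71-fold lower, on the probe at chr15:67006754-67006813 (mm7, plus strand).

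The factors that carry the signal into the nucleus moved less. Tcf7 had array log2 ratios of -0.44, -0.84, -0.96 and -1.10 and a mean of -0.84 ± 0.27 (adjusted p = 0.0301). Lef1, at 0.12, 0.28, 0.46 and 0.64 with a mean of 0.38 ± 0.25, did not pass (adjusted p = 0.431). Ctnnb1 at 0.39 ± 0.13 did not pass either (adjusted p = 0.0595), and its array ratios of 0.84, -0.24, 0.91 and 0.07 alternated with the dye orientation in both lines. Axin1, the constitutive scaffold, was at -0.03 and Tcf7l2 at 0.17.

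**Figure D2:**
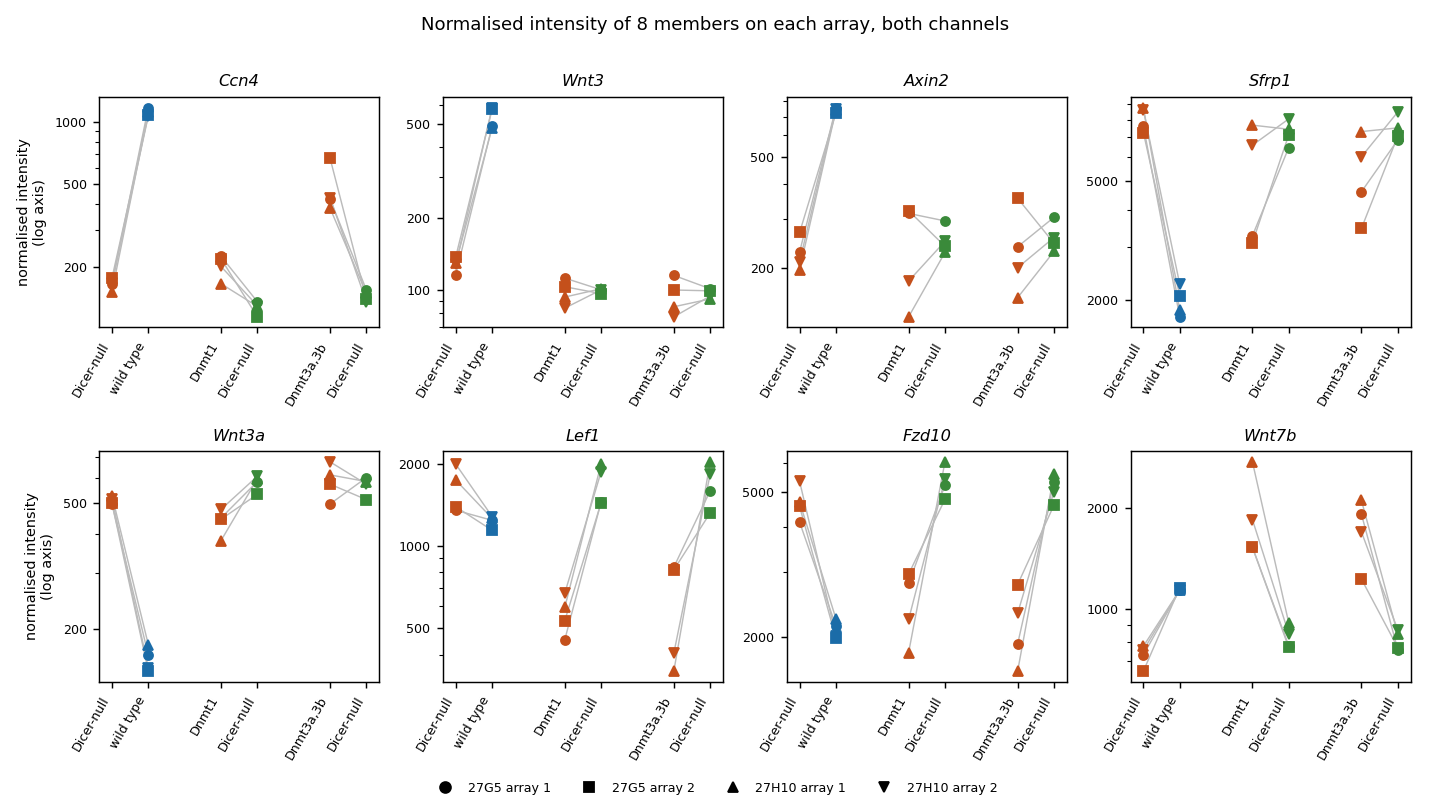
Normalised intensity (vertical log axis) of 8 members in both channels of each array, with the 2 RNAs of 1 array joined by a line: Dicer-null beside wild type, cells labelled Dnmt1 beside Dicer-null, and cells labelled Dnmt3a,3b beside Dicer-null. Ccn4, Wnt3 and Axin2 are low in Dicer-null cells, Sfrp1, Wnt3a and Fzd10 are high, and Lef1 and Fzd10 are low in both kinds of cells labelled as overexpressing.

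A fit that modelled the RNAs shared between ratios passed 9 of the 44 members for Dicer-null over wild type, and 9.81% of all genes. These were Wnt3a, which was higher, and Ccn4, Wnt3, Wnt4, Wnt7a, Wnt8a, Wnt10a, Sfrp2 and Fzd2, which were lower. Axin2, Sfrp1, Dkk1, Fzd1 and Fzd10 were not among them, and with 1 line left out 17 members and 17.6% of all genes (without 27G5) or 13 members and 15.8% of all genes (without 27H10) passed.

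Markers of other cell types moved with these results. Of 11 fibroblast genes tested, 8 were lower and 1 higher in Dicer-null cells, and their summed intensity was 19100 to 22700 in Dicer-null cells, against 68300 to 80900 in wild type. Col3a1 and Postn, 2 of the defining fibroblast collagen and matrix genes, did not clear background on any array in that role. Of 10 trophoblast genes, 6 were lower and 1 higher, with sums of 32200 to 65100 in Dicer-null cells, against 92400 to 213000 in wild type. Of 7 primitive endoderm genes 4 were lower and 0 higher, with sums of 1230 to 1390 in Dicer-null cells, against 2760 to 2950 in wild type.

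The part of these cell types in the member results was not tested. The 8 ES cell markers were well above background in every channel, with 5 higher and 0 lower and sums of 166000 to 209000 in Dicer-null cells, against 133000 to 141000 in wild type. Of 7 primitive streak and mesoderm genes 3 were higher and 2 lower, with sums of 2590 to 2720 in Dicer-null cells, against 1770 to 2090 in wild type.

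**Figure D3:**
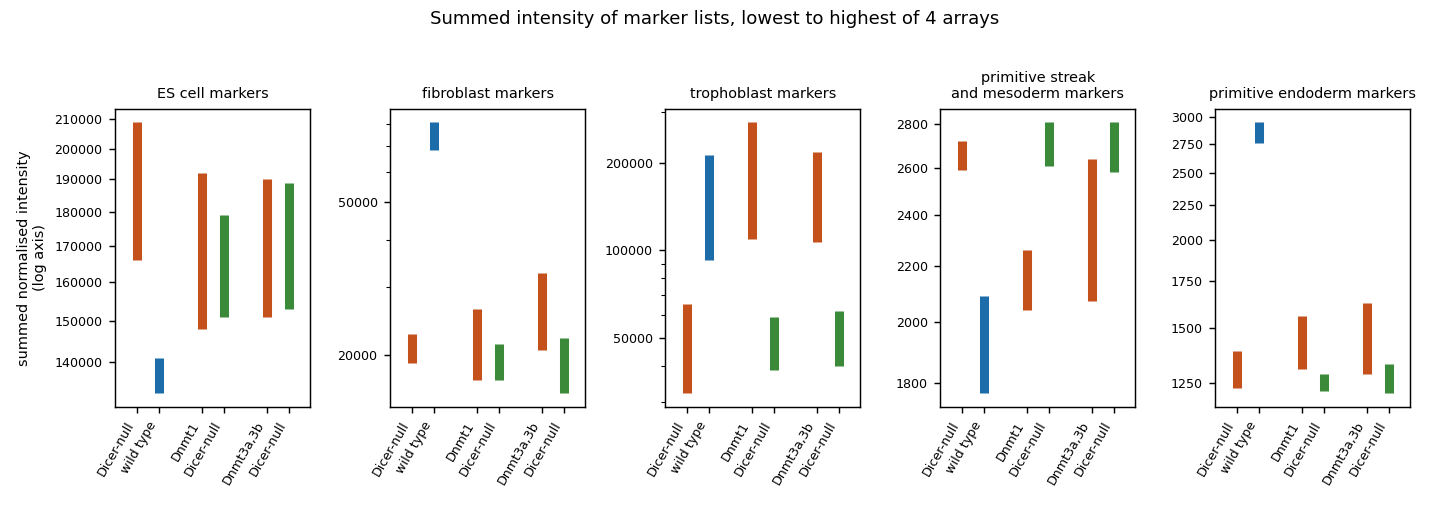
Summed normalised intensity (vertical log axis) of the 5 marker lists, as a bar from the lowest to the highest of 4 arrays, in each group and the group it shared arrays with. The fibroblast sum is lower in Dicer-null cells than in wild type, and the trophoblast sum is higher in both kinds of cells labelled as overexpressing than in Dicer-null cells.

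The rest of the pathway was described from 3 lists. Of 27 genes for Wnt secretion and surface partners 23 were tested, and in Dicer-null cells relative to wild type 7 rose, 5 fell and 11 did not pass, beside 40.7% of all genes that passed, with a median log2 ratio of -0.03. Rspo1, a secreted protein that protects Frizzled from turnover, fell by 2.26 ± 0.20 on the log2 scale (adjusted p = 0.000266). Rnf43, the membrane ubiquitin ligase that removes Frizzled, was at -1.46 ± 0.06, Kremen2, a receptor for Dkk proteins, at -1.36 ± 0.11, and Ryk, a co-receptor, at -0.71 ± 0.11. Notum, the secreted enzyme that strips the lipid from Wnt ligands, rose by 2.13 ± 0.08 (adjusted p = 0.000382), and Apcdd1, a membrane inhibitor of the pathway, rose by 1.79 ± 0.31 (adjusted p = 0.000478). Their second probes gave 0.88 for Notum and 0.29 for Apcdd1.

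All 36 genes of the list for signal transduction were tested, and 7 rose, 9 fell and 20 did not pass, a share near the 40.7% of all genes, with a median log2 ratio of -0.10. Nkd2 fell by 2.75 ± 0.28 on the log2 scale (adjusted p = 0.000202), and Nkd1 by 1.18 ± 0.12 (adjusted p = 0.00129). A second Nkd2 probe gave -0.74. Both encode Naked proteins that bind Dishevelled, and Nkd1 is also a published target. Vangl2, a planar polarity gene, was at -1.29 ± 0.45, Ctnnbip1, an inhibitor of β-catenin binding to Tcf factors, at -1.29 ± 0.18 and Dact1, a Dishevelled-binding protein, at -1.01 ± 0.12. Dact2 of the same family was at 0.83 ± 0.12. Other probes gave -0.41 for Dact1, 0.43 for Dact2 and as little as -0.43 for Vangl2.

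Of 31 published Wnt target genes 27 were tested, and 6 rose, 14 fell and 7 did not pass, beside 40.7% of all genes that passed, with a median log2 ratio of -0.67. T, the mesoderm factor Brachyury, fell by 2.46 ± 0.01 on the log2 scale (adjusted p = 0.000103), and Cd44 by 1.57 ± 0.06 (adjusted p = 0.000227). Evx1, a homeobox gene of the posterior streak, rose by 1.73 ± 0.21 (adjusted p = 0.000713). Notum and Apcdd1, which rose, and Rnf43, which fell, are on this list as well. The list therefore held genes in both directions, and it was chosen with earlier results of these data known.

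In the cells labelled Dnmt1, the factor Lef1 and the receptor Fzd10 fell, and the ligands Wnt9a, Wnt7b and Wnt7a rose. Of the 44 members 7 rose, 6 fell and 31 did not pass relative to Dicer-null cells. This is 29.5% of members, and 22.9% of all genes passed, 12.2% higher and 10.8% lower. The median member log2 ratio was 0.01, equal to that of all genes. Because the Dicer-null RNA that serves here as the denominator is the one that stands on top in the comparison with wild type, the values of the comparisons are given side by side and are not independent.

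Lef1 had intensities of 454, 533, 596 and 672 in cells labelled Dnmt1, against 1450, 1440, 2000 and 1870 in Dicer-null cells. No value of the labelled cells reached a Dicer-null one. The log2 ratio was -1.58 ± 0.04 (SD, n = 2 lines, adjusted p = 0.0271), on the probe at chr3:131060609-131060668 (mm7, plus strand). The second Lef1 probe, shown above, gave -1.07 ± 0.22.

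Among the ligands 3 rose and 2 fell. Wnt9a had intensities of 755, 749, 437 and 500.0 in cells labelled Dnmt1, against 282, 278, 259 and 229 in Dicer-null cells, higher in line 27G5 and without overlap. Its log2 ratio was 1.18 ± 0.34 (adjusted p = 0.00519). Wnt7b, a ligand known from lung and placenta, had intensities of 1530, 1530, 2750 and 1850 in cells labelled Dnmt1, against 777, 769, 910 and 845 in Dicer-null cells, and a log2 ratio of 1.17 ± 0.27 (adjusted p = 0.00431).

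Wnt7a was well above background on 4 arrays in the labelled cells and on 0 in Dicer-null cells. It was 1.55-fold higher, which is its plain ratio and so an estimate and not a bound. Wnt3a at -0.41 and Wnt5a at -0.32 on the log2 ratio scale fell. Wnt5a was well above background on 0 arrays in the labelled cells and on 1 in Dicer-null cells. Its fall therefore rests on signals near background, and no minimum fold is given.

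Among the receptors, Fzd10 had array log2 ratios of -0.89, -0.68, -1.73 and -1.28, all below 0, with a mean of -1.15 ± 0.51 (adjusted p = 0.013), and its second probe gave -0.87 ± 0.26. Fzd1 had array ratios of 0.83, 1.01, 0.63 and 0.98 and a mean of 0.86 ± 0.08 (adjusted p = 0.0136). Fzd6, a receptor of planar polarity, rose by 0.78 ± 0.53 and Fzd3 by 0.44 ± 0.16, while Fzd5 fell by 0.39 ± 0.04. Sfrp4 was the only antagonist to pass, with array ratios of -0.39, -0.69, -1.16 and -1.40 and a mean of -0.91 ± 0.52 (adjusted p = 0.026).

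Ccn4 had intensities of 225, 219, 166 and 201 in cells labelled Dnmt1, against 136, 115, 129 and 130 in Dicer-null cells. The groups did not overlap, and the log2 ratio was 0.66 ± 0.23 (adjusted p = 0.0182). The readout Axin2 did not pass at -0.18 ± 0.63 (adjusted p = 0.623), with 0.09 and 0.43 on the arrays of line 27G5 and -0.77 and -0.48 on those of line 27H10. Tcf7 at -0.04 ± 0.10 and Ctnnb1 at -0.17 ± 0.32 did not pass (adjusted p = 0.915 and 0.399). The other Ctnnb1 probes, both dimmer than the tested one, disagreed. The brighter of them gave -0.05 ± 0.44 with arrays of both signs, and the dimmer one 0.40 ± 0.24 with 4 positive arrays.

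In the cells labelled Dnmt3a,3b, 8 members rose, 4 fell and 32 did not pass relative to Dicer-null cells. This is 27.3% of members, and 21.1% of all genes passed, 10.6% higher and 10.5% lower. The median member log2 ratio was 0.07, beside 0.01 over all genes. Of the 12 called members, 11 had arrays of a single sign, and the exception was Fzd6, whose arrays read 1.29, -0.12, 1.38 and 0.64.

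Ccn4 rose in these cells as well. Its intensities were 424, 668, 384 and 431 in cells labelled Dnmt3a,3b, against 155, 140, 149 and 136 in Dicer-null cells, with no overlap. The log2 ratio was 1.68 ± 0.24 (adjusted p = 0.0029). Lef1 had intensities of 836, 817, 348 and 405 in the labelled cells, against 1590, 1320, 2030 and 1830 in Dicer-null cells. All labelled values were lower, and the lines differed: the Lef1 log2 ratio was -0.81 in line 27G5 and -2.36 in line 27H10, with a mean of -1.58 ± 1.09 (adjusted p = 0.0282).

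Of the ligands, 3 rose and 0 fell. Wnt7a was well above background on 4 arrays in the labelled cells and on 0 in Dicer-null cells. It was 2.20-fold higher (adjusted p = 0.0025), again an estimate and not a bound. Wnt7b had array log2 ratios of 1.34, 0.69, 1.33 and 0.97 and a mean of 1.08 ± 0.10 (adjusted p = 0.00525). Wnt9a had ratios of 0.92, 1.30, 0.88 and 1.05 and a mean of 1.04 ± 0.11 (adjusted p = 0.00711). These 3 ligands are the ones that passed with a positive ratio in cells labelled Dnmt1 too, measured against the same Dicer-null RNA.

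Of the receptors, 4 rose and 2 fell. Fzd10 had array log2 ratios of -1.47, -0.72, -1.79 and -1.11 and a mean of -1.27 ± 0.25 (adjusted p = 0.0104), with -1.02 ± 0.12 on its second probe. Fzd1 was at 0.77 ± 0.11 (adjusted p = 0.0184), Fzd6 at 0.80, Lrp5 at 0.62, Fzd3 at 0.46 and Fzd5 at -0.36 on the log2 ratio scale. Sfrp4, the antagonist that passed, had ratios of -0.69, -0.68, -1.05 and -1.16 and a mean of -0.89 ± 0.30 (adjusted p = 0.0281). Axin2 at -0.18 ± 0.39, Tcf7 at 0.22 ± 0.65 and Ctnnb1 at -0.01 ± 0.15 did not pass (adjusted p = 0.625, 0.526 and 0.96).

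**Figure D4:**
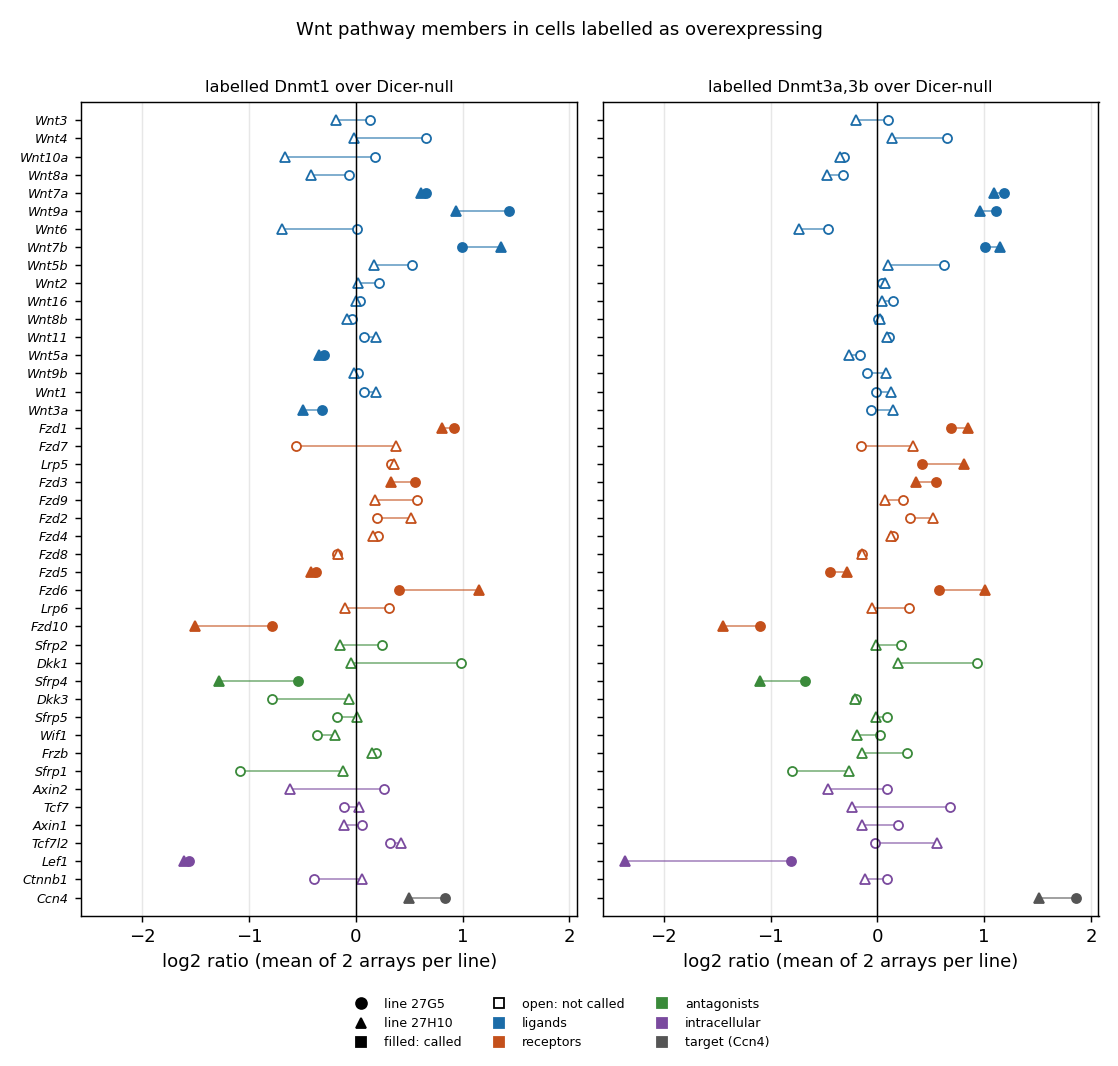
Log2 ratio (horizontal axes) of cells labelled Dnmt1 over Dicer-null and of cells labelled Dnmt3a,3b over Dicer-null for the 44 members (rows, by role and by their Dicer-null over wild type ratio), as the mean of 2 arrays in line 27G5 (circles) and line 27H10 (triangles). Filled symbols are called members, 7 higher and 6 lower for Dnmt1 and 8 higher and 4 lower for Dnmt3a,3b, and the widest gap between the lines is that of Lef1 for Dnmt3a,3b.

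Fewer members passed in the cells labelled as overexpressing under other fits. With the RNAs shared between ratios modelled, 0 members passed for Dnmt1 and 2 for Dnmt3a,3b, which were Ccn4 (adjusted p = 0.037) and Wnt7a (adjusted p = 0.0299). Of all genes, 2.21% passed for Dnmt1 and 1.94% for Dnmt3a,3b in that fit. Without line 27G5, 11 members and 23.4% of all genes passed for Dnmt1, and without line 27H10, 7 members and 11.6%. For Dnmt3a,3b 0 members passed either way, beside 0.0207% of all genes without line 27G5 and 0% without line 27H10.

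Trophoblast markers moved with both comparisons. Of 10 such genes, 7 rose and 0 fell in cells labelled Dnmt1, with summed intensities of 109000 to 276000 in labelled cells, against 38800 to 58700 in Dicer-null cells. In cells labelled Dnmt3a,3b 8 rose and 0 fell, with sums of 107000 to 218000 in labelled cells, against 40100 to 62000 in Dicer-null cells. On the Dnmt1 arrays Cdx2 alone of the 10 did not clear background in the Dicer-null channel. The part of these cells in the rise of Wnt7b, Wnt7a and Ccn4 was not tested. The fibroblast sums overlapped, at 17200 to 26300 in cells labelled Dnmt1 against 17200 to 21400 in Dicer-null cells. Other lists moved as well for Dnmt1. Primitive streak and mesoderm sums were 2040 to 2260 in labelled cells, against 2610 to 2810 in Dicer-null cells. Primitive endoderm sums were 1310 to 1560 in labelled cells, against 1220 to 1290 in Dicer-null cells. For Dnmt3a,3b the sums of both these lists overlapped those of Dicer-null cells.

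The 2 kinds of labelled cells were also set against each other, as a contrast in the same fit. The Dnmt3a,3b minus Dnmt1 difference in log2 ratio passed for 0 of 44 members and for 0% of all genes by limma. At an unadjusted p under 0.05 there were 3 members and 179 of 19324 genes. The 3 members were Ccn4 at 1.02 (SE 0.17), Wnt7a at 0.51 (SE 0.10) and Wnt3a at 0.46 (SE 0.13), each with an adjusted p of 1 by limma. For Ccn4, the array log2 ratios were 1.45, 2.26, 1.37 and 1.66 for Dnmt3a,3b and 0.73, 0.93, 0.36 and 0.63 for Dnmt1, without overlap. The median size of the difference over members was 0.08, the same as over all genes. Within a line both ratios share the Dicer-null RNA, and this fit treated them as independent. The absence of calls is therefore not evidence that the 2 kinds of cells are alike. With the shared RNAs modelled, 0 members and 0% of all genes passed as well.

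The other pathway genes are read beside the 22.9% (Dnmt1) and 21.1% (Dnmt3a,3b) of all genes that passed. Of the 23 secretion and surface genes, 4 rose and 3 fell for Dnmt1, and 4 rose and 3 fell for Dnmt3a,3b. Porcn, the enzyme that attaches the lipid to Wnt ligands, rose by 1.67 ± 0.42 for Dnmt1 (adjusted p = 0.00387) and by 1.70 ± 0.18 for Dnmt3a,3b (adjusted p = 0.00405) on the log2 scale. Notum, which removes that lipid, fell by 1.64 ± 0.32 for Dnmt1 and by 1.06 ± 0.25 for Dnmt3a,3b, with -1.25 and -0.67 on its second probe. Both genes were higher in Dicer-null cells than in wild type, Porcn at 0.94 ± 0.09 (adjusted p = 0.00586) and Notum at 2.13 ± 0.08. Porcn thus moved the same way in the labelled cells, and Notum the other way. Rnf43 was at 0.48 and 0.54, Ryk at 0.55 and 0.53 and Lgr5, an R-spondin receptor, at -0.43 and -0.42 for Dnmt1 and Dnmt3a,3b. Lgr5 was well above background on 1 array in each kind of labelled cells and on 4 in Dicer-null cells.

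Of the 36 transduction genes, 6 rose and 1 fell for Dnmt1, and 5 rose and 1 fell for Dnmt3a,3b, no larger a share than the 22.9% and 21.1% of all genes. Nkd2 rose by 1.23 ± 0.02 (adjusted p = 0.00543) and 1.20 ± 0.28 (adjusted p = 0.0061), and Pygo1, a β-catenin co-activator, by 0.84 ± 0.11 and 0.75 ± 0.09. The second Nkd2 probe gave 0.14 and 0.09. Gsk3b, the kinase of the destruction complex, was at 0.67 ± 0.08 and 0.60 ± 0.38, with 0.30 and 0.13 on its second probe. Amer1, a scaffold of that complex, was at -0.51 ± 0.06 and -0.54 ± 0.02. For Dicer-null over wild type Gsk3b was already at 0.68 ± 0.07, with -0.04 on its second probe. Of the 27 published targets 5 rose and 6 fell for Dnmt1, and 7 rose and 3 fell for Dnmt3a,3b. Among them Evx1 was at -1.22 ± 0.34 and -0.92 ± 0.17, Id2 at 1.05 ± 0.16 and 0.67 ± 0.40, and Msx2 at 1.75 ± 0.80 and 1.86 ± 0.68, all of which passed for both Dnmt1 and Dnmt3a,3b.

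The promoters were described because a DNA methyltransferase acts on CpG sites and because Tcf and Lef factors bind DNA. RefSeq windows from 250 bases before to 50 after the start on build GRCm38.p6 were found for 29 of the 44 members, 38 windows of 300 bases in all. Taking the window with most CpG sites for each gene, the median was 31 CpG sites in members and 20 in the 12342 genes tested that had a window. The ratio of observed to expected CpG was 0.6 or more in 26 of 29 members (89.7%) and in 66.6% of those genes. For Dnmt1, the 4 called lower members with a window had a median of 41.5 CpG sites. The 3 called higher had a median of 42, with a range of 16 to 58, and the 22 not called a median of 28. For Dnmt3a,3b the medians were 38 (lower), 42 (higher) and 29 (not called). For Dicer-null over wild type, which involves no Dnmt label, called members also stood above the others, at 31 (lower), 38 (higher) and 26 (not called). A link between calls and CpG sites was not tested.

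The windows of Fzd10, which fell in both kinds of labelled cells, and of Wnt9a and Wnt7a, which rose in both, are shown side by side with their CpG sites in capitals. Fzd10, at chr5:128600856-128601155 on the plus strand, held 45 CpG sites. Wnt9a, at chr11:59306680-59306979 on the plus strand, held 58, and Wnt7a, at chr6:91411304-91411603 on the minus strand, held 42. Other members called in both kinds of labelled cells held fewer. Fzd1, which rose in both, held 16. Of those that fell in both, Fzd5 held 38 and Lef1 held 21 in its densest window.
Fzd10: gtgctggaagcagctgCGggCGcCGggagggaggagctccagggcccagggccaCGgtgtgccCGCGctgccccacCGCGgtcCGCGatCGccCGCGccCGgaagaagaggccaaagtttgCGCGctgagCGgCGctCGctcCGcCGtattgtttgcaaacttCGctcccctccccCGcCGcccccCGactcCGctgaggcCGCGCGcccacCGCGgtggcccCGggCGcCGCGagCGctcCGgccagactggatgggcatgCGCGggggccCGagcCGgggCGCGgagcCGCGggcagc
Wnt9a: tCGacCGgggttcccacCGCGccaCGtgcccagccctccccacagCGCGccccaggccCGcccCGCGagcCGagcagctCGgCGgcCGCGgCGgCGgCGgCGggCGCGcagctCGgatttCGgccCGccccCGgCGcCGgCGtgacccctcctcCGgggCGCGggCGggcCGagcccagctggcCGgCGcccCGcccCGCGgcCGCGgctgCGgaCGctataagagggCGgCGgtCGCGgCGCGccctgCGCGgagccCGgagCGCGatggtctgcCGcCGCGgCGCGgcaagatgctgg
Wnt7a: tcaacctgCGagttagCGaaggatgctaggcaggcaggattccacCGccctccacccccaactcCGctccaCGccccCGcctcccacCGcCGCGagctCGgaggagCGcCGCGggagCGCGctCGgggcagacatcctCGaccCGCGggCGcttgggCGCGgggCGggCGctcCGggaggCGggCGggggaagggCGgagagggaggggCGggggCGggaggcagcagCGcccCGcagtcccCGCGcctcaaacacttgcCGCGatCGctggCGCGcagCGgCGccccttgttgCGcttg

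The word CTTTGNN with A or T as each of its last letters, a form that Tcf and Lef factors are known to bind, was searched on both strands. At least 1 match stood in 7 of 38 member windows (18.4%) and in 12.3% of the windows of genes tested. None was in the Axin2 window. The Wnt3 window at chr11:103773925-103774224 (plus strand) held 1 match and the Dkk1 window at chr19:30549447-30549746 (minus strand) held 2. Of the 7 genes with a match, Wnt3, Dkk1, Fzd7 and Wnt5b fell in Dicer-null cells, and Lef1, Tcf7l2 and Wnt11 were not called. Of all 29 members with a window, 15 fell, 5 rose and 9 were not called, so the share that fell was similar. The Wnt3 and Dkk1 windows are shown as examples, with the matches in capitals.
Wnt3: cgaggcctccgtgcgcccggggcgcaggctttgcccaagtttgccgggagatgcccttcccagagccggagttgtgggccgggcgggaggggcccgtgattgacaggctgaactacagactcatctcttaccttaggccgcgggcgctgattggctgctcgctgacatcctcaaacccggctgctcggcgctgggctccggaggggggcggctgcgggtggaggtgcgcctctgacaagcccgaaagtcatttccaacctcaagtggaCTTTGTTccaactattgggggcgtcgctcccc
Dkk1: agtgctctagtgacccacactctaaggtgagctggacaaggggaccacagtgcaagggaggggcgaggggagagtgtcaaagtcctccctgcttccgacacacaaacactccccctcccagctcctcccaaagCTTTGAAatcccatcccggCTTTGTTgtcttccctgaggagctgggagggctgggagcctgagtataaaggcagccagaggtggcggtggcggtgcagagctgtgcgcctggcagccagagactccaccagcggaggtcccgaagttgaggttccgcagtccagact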

How the data were processed

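RNA of mouse ES cells was measured on 12 Agilent 2-colour arrays. The deposited scanner files gave, for every spot, an intensity as mean signal and as median background, which per the file headers came from Feature Extraction 9.5.1.1 (8 arrays) or 9.1.3.1 (the 4 arrays with wild-type RNA). The same deposited files gave a log10 ratio of background-subtracted, dye-normalised signals. The authors deposited a value table on a log2 scale turned to the first-named cells over their reference, which its comparison with the scanner values bore out; its centring is not stated. Unused columns of per-sample values numbered 0.

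Intensities were background-corrected with normexp (offset 50) and normalised by loess within each array in limma 3.58.1 (R 4.3.3), without control and outlier spots. Normalised intensities per channel are relative values. Spots of a probe and the 2 dye-swapped arrays of a pairing were averaged, which gave 6 ratios. A gene was tested where a probe was well above background on both arrays of a pairing in 1 channel's RNA, with the brightest probe standing for it (19324 genes). lmFit and eBayes were run with 1 coefficient per comparison (3 residual degrees of freedom), and p-values were adjusted (Benjamini-Hochberg) over all genes. SDs are over the 2 lines. For "at least" folds, a side without signal was raised to the array's lowest signal well above background where it lay below that.

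The fit was also run on simulated data with known changes. The simulated ratios were independent, whereas the real ratios share RNAs. That run therefore cannot check the calls on the real arrays, and no conclusion is drawn from it. Names followed RefSeq symbols on GRCm38.p6, and probe positions follow the mm7 build in the headers. Named with array values were the called members of 1 sign on all 4 arrays (up to 12, 8 and 8 by size). The intracellular genes Axin2, Lef1, Tcf7 and Ctnnb1 were named whatever their value. Up to 6 called genes per list were named by the moderated statistic. The members, lists and rules were chosen with earlier results of these data known. Alternatives in background correction, normalisation, filter, probe choice, variance model, shared RNAs, arrays and lines are in the closing section.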

Additional observations from a re-analysis of the deposited data

Results flagged for a closer look

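In 12 of 132 member results, both arrays of line 27G5 moved one way and both arrays of line 27H10 the other, a difference between lines that was not tested. Of the Dicer-null over wild type ratios these were Dkk3, with log2 ratios of 0.32 in line 27G5 and -0.11 in line 27H10, and Sfrp5, with 0.33 and -0.03 in the same order of lines. For cells labelled Dnmt1 over Dicer-null the line 27G5 and line 27H10 log2 ratios were 0.26 and -0.62 for Axin2, 0.98 and -0.05 for Dkk1, and -0.56 and 0.38 for Fzd7. They were 0.31 and -0.10 for Lrp6, 0.24 and -0.15 for Sfrp2, and 0.13 and -0.19 for Wnt3. For cells labelled Dnmt3a,3b over Dicer-null they were -0.15 and 0.33 for Fzd7, 0.30 and -0.05 for Lrp6, 0.68 and -0.24 for Tcf7, and 0.10 and -0.20 for Wnt3. None of the 12 passed the adjusted p threshold as a mean over lines, and the Dnmt arrays of each line were on a slide of their own, so line and slide cannot be told apart there.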

How the results depend on the processing

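Other background corrections, median centring in place of loess, the scanner log ratio, the authors' table, other filters on dim probes, the mean over probes and another variance prior left the counts of called members within 1.5 times of those reported: 27 to 31 of 44 for Dicer-null over wild type, 11 to 14 for Dnmt1, and 8 to 14 for Dnmt3a,3b. The covariance of RNAs shared between ratios, modelled by generalised least squares, gave 9, 0 and 2. Leaving out 1 line or 1 array of each pair gave 13 to 30, 7 to 13 and 0 to 13. A single line left in a comparison was assumed to vary like the other comparisons. Of 74 named results that were called, 49 lost the call with shared RNAs modelled, 33 without line 27G5, 38 without line 27H10, and 0 to 5 under each other setting. Of results that reversed, Ctnnb1 for Dnmt3a,3b was 0.66 with only array 1 of each pair (adjusted p = 0.0277) and -0.69 with only array 2, and Gpc4 for Dnmt3a,3b was 0.64 with only array 1 and -0.07 with only array 2, against 0.29 with both; the cause was not tested. The replicate numbers in the labels mark the dye orientation, and same-numbered arrays deviated together (r between 0.718 and 0.946 over 15 combinations). Averaging the 2 orientations removes such an effect only where it is of equal size in both, which was not tested. The fit with the line as a replicate block gave 29, 13 and 12 called members, and 1 of 74 named results lost its call. The difference Dnmt3a,3b minus Dnmt1 had 0 called members under every setting run. Dim probes limit Wnt16, Wnt2, Wnt5a, Wnt7a, Wnt8a and Wnt8b, whose signals are near background. The normexp offset of 50 draws the ratios of dim probes towards 0, so with the scanner log ratio, which has no offset, several log2 ratios were larger in size: 2.97 in place of 1.14 for Wnt7a and 2.39 in place of 1.68 for Ccn4 (Dnmt3a,3b), -1.90 in place of -0.43 (Dnmt1) and -1.99 in place of -0.42 (Dnmt3a,3b) for Lgr5, and -3.06 in place of -2.06 for Wnt3, -2.38 in place of -1.34 for Wnt8a, -2.16 in place of -1.31 for Dkk1 and -4.18 in place of -2.46 for T (Dicer-null over wild type). With the mean over probes, Nkd2 was at -1.75 in place of -2.75, Apcdd1 at 1.04 in place of 1.79 and Notum at 1.51 in place of 2.13 for Dicer-null over wild type.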
